A study of Mus musculus with 36 samples.

Results

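NODAL is a secreted ligand of the TGF-beta family that signals through a receptor complex containing ACVR1B, and it needs the membrane-bound co-receptor Cripto, encoded by Tdgf1, to do so. The activated receptor phosphorylates SMAD2 and SMAD3, which enter the nucleus and act with DNA-binding partners such as FOXH1. Lefty1 and Lefty2 are targets of the pathway and encode secreted proteins that block it, so that signalling limits itself. In the fetal mouse testis, NODAL signalling is known from germ cells around the time when they turn to the male fate, and it is best known from the gastrula and from embryonic stem cells.

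The 6 genes described here, Nodal, Tdgf1, Acvr1b, Foxh1, Lefty1 and Lefty2, were chosen by symbol from the 19938 genes that the array table names. All 6 were found, each with 1 probe set, and no filter on dim genes was applied. Expression had been measured on Affymetrix Mouse Gene 1.0 ST arrays with RNA of cells flow-sorted from fetal mouse gonads pooled by sex, and each of 12 groups had 3 arrays. XY and XX germ cells at 11.5, 12.5 and 13.5 days post coitum (dpc) came from an Oct4 reporter line, progeny of C57BL/6NJ on a mixed background. XX supporting cells at all stages, and XY supporting cells at 11.5 dpc, came from the Tg(Sry-EGFP)92Ei line, progeny of CD-1. XY supporting cells at 12.5 and 13.5 dpc came from a Sox9 reporter line, C57BL/6 progeny labelled Tg(Sox9-cre/ERT2)1Msan/J, a name that gives a Cre transgene and not the fluorescent protein. Supporting cells are the somatic lineage of Sertoli cells (testis) and granulosa cells (ovary). Germ and supporting cells therefore differ in reporter line and strain as well as in cell type, and XY and XX supporting cells do so at 12.5 and 13.5 dpc.

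The array labelled germ XX 12.5 dpc replicate 3 was left out, which leaves 2 arrays in that group and 35 in all. In it the germ cell RNA helicase gene Ddx4 stood at 5.04 on the log2 scale, against 10.46 to 12.07 in the 17 germ cell arrays that were kept. The median of 6 stromal markers was 10.29 in it and 6.02 to 7.45 in the other germ cell arrays. For 5 endothelial markers the median was 7.66 in it and 5.31 to 6.25 in the other germ cell arrays. The median of 8 germ cell markers was 10.0 to 11.25 in the 17 germ cell arrays kept, and 5.43 to 6.63 in the 18 supporting cell arrays. For 8 supporting cell markers the medians were 6.83 to 7.36 in the germ cell arrays kept and 9.05 to 10.3 in supporting cells. The left-out array was at 9.36, within the supporting cell range. Array medians lay between 6.54 and 7.01. Values are RMA log2 expression as deposited, and differences are log2 differences with the moderated standard error (SE) of limma, with p-values adjusted over all 19938 genes and a threshold of 0.05. Levels are compared only within a gene, because probe sets differ in brightness. In most arrays the deposited values fell into 3 interleaved sets of table rows whose medians lay up to 0.75 apart. "Row sets aligned" marks a value computed after these sets were put on 1 scale, and it is given where it changes a call of the 6 genes or moves a called difference by more than 1.5 times.

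The 6 genes lie on 4 autosomes of the mouse assembly GRCm38.p6. Nodal is on chromosome 10 (61417972-61425338), Tdgf1 on chromosome 9 (110939608-110946158), Acvr1b on chromosome 15 (101174072-101213684) and Foxh1 on chromosome 15 (76667829-76671614). Lefty2 (180893108-180899107) and Lefty1 (180935022-180938401) are neighbours on chromosome 1 with 35914 bases between them. The Lefty genes are similar in sequence, and whether the probes of each also bind the transcript of the other was not tested, so their separate values are uncertain.

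The promoters of the ligand and the co-receptor are shown because Tdgf1 had the widest range of group means among the 6 genes and Nodal the narrowest. RefSeq promoters (250 bases before to 50 after the start, GRCm38.p6) were given for 3 of the 6 genes. Capitals mark matches to AATNNACA, a loose pattern used for FOXH1 in which N is any base, and to CAGAC, letters bound by SMAD proteins. Both strands were searched.
Tdgf1 (chr9:110946109-110946408, minus strand): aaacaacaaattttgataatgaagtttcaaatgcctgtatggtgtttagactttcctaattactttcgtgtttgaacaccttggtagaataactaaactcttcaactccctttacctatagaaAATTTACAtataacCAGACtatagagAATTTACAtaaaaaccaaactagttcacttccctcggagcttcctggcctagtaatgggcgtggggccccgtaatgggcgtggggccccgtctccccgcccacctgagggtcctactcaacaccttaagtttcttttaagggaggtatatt
Nodal (chr10:61417722-61418021, plus strand): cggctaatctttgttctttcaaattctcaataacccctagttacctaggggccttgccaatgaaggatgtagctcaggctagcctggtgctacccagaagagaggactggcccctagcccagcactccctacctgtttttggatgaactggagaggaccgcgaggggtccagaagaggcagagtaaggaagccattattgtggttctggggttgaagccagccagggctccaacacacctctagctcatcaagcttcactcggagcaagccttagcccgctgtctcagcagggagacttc

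The Tdgf1 window held AATNNACA at 2 places, both with the letters AATTTACA, at -127 and -101 from the annotated start, and CAGAC between them at -113. The matches do not overlap, and whether FOXH1 binds the letters AATTTACA was not tested. Of 32851 mouse promoter windows of the same length 12.2% held AATNNACA, 1.43% held it at 2 or more places, and 49.6% held CAGAC. The Nodal window held neither run of letters, and nor did that of Acvr1b, the other gene with a promoter given. This says only that they are not in these 300 bases of each gene. A further SMAD pattern, GTCTAGAC, was in none of the windows of these genes, and 0.2% of the 32851 windows held it.

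Tdgf1, the co-receptor gene, was the most variable of the 6. Its group means spanned 5.45 log2 units over the 12 groups, a span larger than that of 99.7% of genes, where the median gene spanned 0.76. Germ cells of both sexes had high levels at 11.5 dpc, and the sexes then parted, with XX germ cells losing most of the signal. At 11.5 dpc it stood at 11.55, 10.85 and 11.11 in XY and at 10.7, 10.4 and 9.74 in XX germ cells. At 12.5 dpc it stood at 10.57, 10.66 and 10.97 in XY and at 8.3 and 7.42 in XX germ cells. At 13.5 dpc it stood at 8.92, 9.81 and 10.12 in XY and at 6.47, 6.3 and 6.01 in XX germ cells. At every stage each XY array was above each XX array of that stage. In the 18 supporting cell arrays it lay between 5.48 and 6.62, so that XX germ cells at 13.5 dpc were within the supporting cell range. Ordered by mean, XY germ cells at 11.5 and 12.5 dpc, XX germ cells at 11.5 dpc and XY germ cells at 13.5 dpc came first, and each overlapped the next in range. XX germ cells at 12.5 dpc stood alone between these and the other groups, which overlapped each other in turn. These are pools of sorted cells, in which fewer cells with the transcript and less RNA per cell cannot be told apart.

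**Figure D1:**
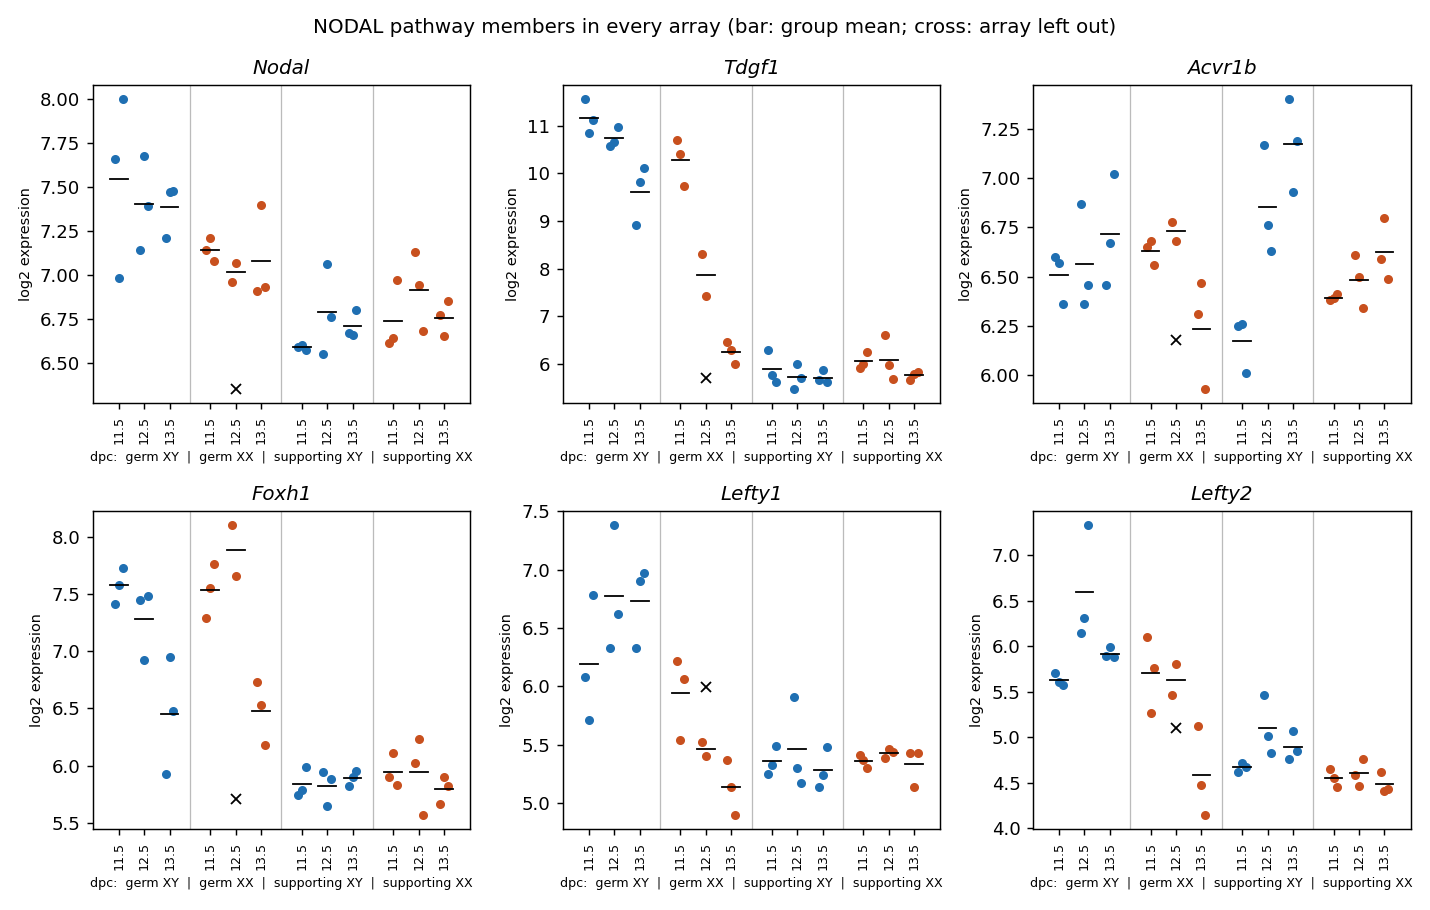
Each panel plots the log2 expression of 1 gene in every array, by stage (dpc), for XY germ, XX germ, XY supporting and XX supporting cells; points are arrays, bars are group means and the cross is the array left out. Tdgf1 falls in XX germ cells to 6.01 to 6.47 at 13.5 dpc, while Lefty1 and Lefty2 are highest by mean in XY germ cells at 12.5 dpc.

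Between the sexes, Tdgf1 was higher in XY germ cells by 2.87 at 12.5 dpc (SE 0.28, adjusted p = 2.55e-10, 7.33-fold, 3 against 2 arrays) and by 3.36 at 13.5 dpc (SE 0.25, adjusted p = 1.22e-14, 10.3-fold). At 11.5 dpc the difference was 0.89 with a 95% interval of 0.38 to 1.4, and it did not pass (adjusted p = 0.8, unadjusted p = 0.001). The sex difference grew by 1.98 between 11.5 and 12.5 dpc (SE 0.38, adjusted p = 0.00549) and by 2.47 between 11.5 and 13.5 dpc (SE 0.36, adjusted p = 6.55e-06). The first of these 2 changes was 1.54 (adjusted p = 0.252) without XX 12.5 dpc replicate 2, which leaves a single array in that group, and 1.77 (adjusted p = 0.122) with array weights.

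Over time, Tdgf1 fell in XX germ cells at both steps, with a difference of -2.42 at 12.5 against 11.5 dpc (SE 0.28, adjusted p = 2.09e-07) and of -1.6 at 13.5 against 12.5 dpc (SE 0.28, adjusted p = 0.000139). In a fit of only the arrays compared the first of these had an adjusted p of 0.0542. With the left-out array kept, the later difference was -0.88 (adjusted p = 0.0991). In XY germ cells the difference at 12.5 against 11.5 dpc was -0.44 and did not pass (adjusted p = 0.636), and Tdgf1 fell at 13.5 against 12.5 dpc (-1.11, SE 0.25, adjusted p = 0.00637). That XY fall was -0.77 (adjusted p = 0.211) without XY 13.5 dpc replicate 1, -1 (adjusted p = 0.0644) without XY 12.5 dpc replicate 3, -0.85 (adjusted p = 0.0664) with array weights and -1.11 (adjusted p = 0.17) with the left-out array kept.

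The inhibitor gene Lefty1 stood at 6.33, 7.38 and 6.62 in XY and at 5.52 and 5.4 in XX germ cells at 12.5 dpc. At 13.5 dpc it stood at 6.33, 6.9 and 6.97 in XY and at 5.37, 5.14 and 4.9 in XX germ cells. The groups did not overlap at either stage. At 11.5 dpc they did, with 6.08, 5.71 and 6.78 in XY and 5.54 to 6.22 in XX germ cells. Lefty1 was higher in XY by 1.31 at 12.5 dpc (SE 0.26, adjusted p = 0.00168) and by 1.6 at 13.5 dpc (SE 0.23, adjusted p = 1.29e-06), against 0.25 at 11.5 dpc (SE 0.23, adjusted p = 1). The 12.5 dpc call was lost without XY replicate 2 (1.01, adjusted p = 0.0545), whose value of 7.38 was the highest, and without XX replicate 2 (1.26, adjusted p = 0.0746). The difference grew by 1.35 between 11.5 and 13.5 dpc (SE 0.33, adjusted p = 0.00952). Its growth to 12.5 dpc was 1.07 (SE 0.35, adjusted p = 0.258), and 0.88 (adjusted p = 0.0474) with row sets aligned.

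Within each sex no stage difference of Lefty1 passed. In XY germ cells it was 0.59 higher at 12.5 than at 11.5 dpc (SE 0.23, adjusted p = 0.315), and this passed with row sets aligned (0.56, adjusted p = 0.0127). It was -0.48 in XX germ cells at 12.5 against 11.5 dpc (SE 0.26, adjusted p = 0.485) and -0.33 at 13.5 against 12.5 dpc (SE 0.26, adjusted p = 0.467). XX germ cells at 13.5 dpc had the lowest mean of the 12 groups (5.14 ± 0.23, SD, n = 3), below the supporting cell means of 5.29 to 5.46 but overlapping them in range. XY germ cells at 12.5 and 13.5 dpc had the highest, at 6.78 ± 0.54 and 6.73 ± 0.35 (SD, n = 3 each). The Lefty1 means of all other groups were dim, below the lowest array median of 6.54.

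Lefty2, the neighbouring inhibitor gene, had its highest mean in XY germ cells at 12.5 dpc. That mean was 6.6, and the means of all other groups, at 4.49 to 5.92, were dim, below the lowest array median of 6.54. XY germ cells had 5.71, 5.61 and 5.57 at 11.5 dpc, 6.15, 6.31 and 7.33 at 12.5 dpc, and 5.89, 5.99 and 5.88 at 13.5 dpc. XX germ cells had 6.1, 5.27 and 5.76 at 11.5 dpc, 5.47 and 5.8 at 12.5 dpc, and 5.12, 4.48 and 4.15 at 13.5 dpc. As deposited, the XY arrays of 12.5 dpc were above every array of every other group, while with row sets aligned the lowest of them (6.11) lay below the highest of XY 13.5 dpc (6.19). At 13.5 dpc the sexes did not overlap. Lefty2 was higher in XY by 0.96 at 12.5 dpc (SE 0.25, adjusted p = 0.031) and by 1.34 at 13.5 dpc (SE 0.23, adjusted p = 2.43e-05), with -0.08 at 11.5 dpc (SE 0.23, adjusted p = 1; 0.14 with row sets aligned). The 12.5 dpc value was 1.47 with row sets aligned (adjusted p = 5.64e-05). It lost its call without XY replicate 3 (0.59, adjusted p = 0.233), without XX replicate 1 (0.79, adjusted p = 0.189), without XX replicate 2 (1.12, adjusted p = 0.132) and with array weights (1.17, adjusted p = 0.0667).

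The sex difference of Lefty2 grew by 1.42 between 11.5 and 13.5 dpc (SE 0.32, adjusted p = 0.00467). Its growth to 12.5 dpc was 1.04 (SE 0.34, adjusted p = 0.258), and 1.33 (adjusted p = 0.0225) with row sets aligned. In XY germ cells Lefty2 rose by 0.96 at 12.5 against 11.5 dpc (SE 0.23, adjusted p = 0.0123), the single stage rise among the 6 genes. Without XY 12.5 dpc replicate 3 it was 0.6 (adjusted p = 0.294), without XY 11.5 dpc replicate 3 it was 0.93 (adjusted p = 0.0664), and with the left-out array kept the adjusted p was 0.0539. It fell by 1.06 in XX germ cells at 13.5 against 12.5 dpc (SE 0.25, adjusted p = 0.00523). This value was -0.46 (adjusted p = 0.219) with row sets aligned, -0.84 (adjusted p = 0.0812) without XX 13.5 dpc replicate 3 and -0.89 (adjusted p = 0.114) without XX 12.5 dpc replicate 2. At 13.5 against 12.5 dpc in XY germ cells it was -0.68 (adjusted p = 0.12), and it passed with row sets aligned (-0.64, adjusted p = 0.0363), with array weights (-0.9, adjusted p = 0.0166) and without XY 12.5 dpc replicate 1 (-0.9, adjusted p = 0.0449).

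**Figure D2:**
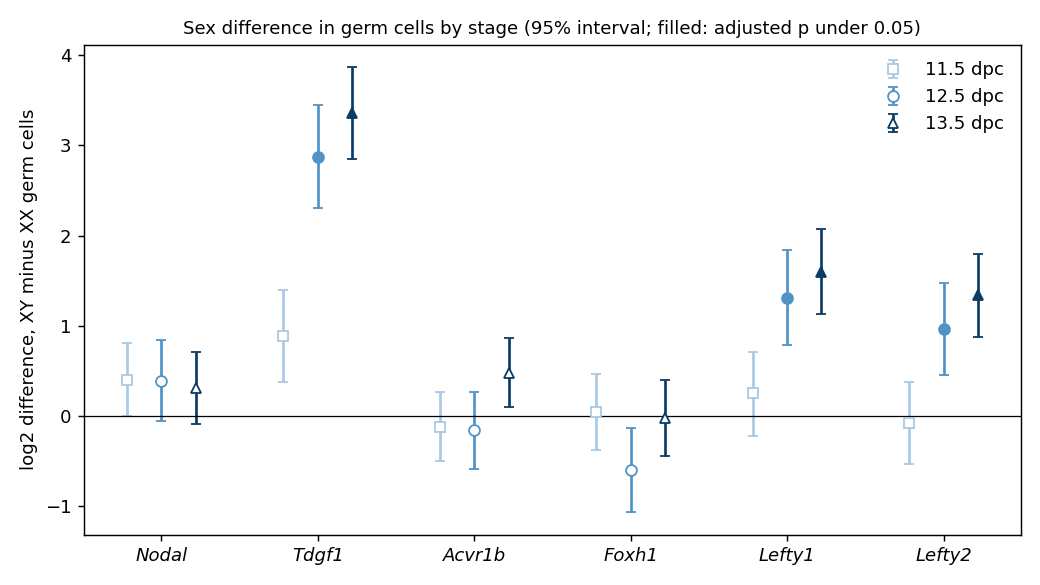
Points give the log2 difference of XY minus XX germ cells for each gene over the 3 stages in turn (squares, circles and triangles), with the 95% interval, and filled points passed at an adjusted p under 0.05. Tdgf1, Lefty1 and Lefty2 are filled at 12.5 and 13.5 dpc, with Tdgf1 at 2.87 and 3.36, and no gene is filled at 11.5 dpc.

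Nodal, the ligand gene, had the narrowest range of the 6. Its group means spanned 0.96, with 7.55 ± 0.52 in XY germ cells and 6.59 ± 0.01 in XY supporting cells, both at 11.5 dpc, as the highest and the lowest (SD, n = 3 each). In XY germ cells it stood at 7.66, 6.98 and 8.0 at 11.5 dpc, 7.14, 7.68 and 7.39 at 12.5 dpc, and 7.21, 7.47 and 7.48 at 13.5 dpc. In XX germ cells it stood at 7.14, 7.21 and 7.08 at 11.5 dpc, 6.96 and 7.07 at 12.5 dpc, and 6.91, 7.4 and 6.93 at 13.5 dpc. The means of the 3 XY germ cell groups ranked first, and all neighbours in the order of the first 11 groups overlapped in range. XY minus XX was 0.4 at 11.5 dpc (SE 0.20, adjusted p = 1), 0.39 at 12.5 dpc (SE 0.22, adjusted p = 0.433) and 0.31 at 13.5 dpc (SE 0.20, adjusted p = 0.43), so that none passed. The 13.5 dpc difference passed with row sets aligned (0.41, adjusted p = 0.000187). The 95% intervals were 0 to 0.81, -0.06 to 0.84 and -0.09 to 0.71. No stage difference passed in either sex, with values between -0.14 and 0.06 and adjusted p of 0.883 to 0.992.

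The Nodal spread within groups was 0.23 (pooled SD, 35 arrays) as deposited and 0.08 with row sets aligned, where the median gene had 0.25 and 0.14. After alignment Nodal stood at 7.29, 7.28 and 7.32 in XY and at 6.84, 7.02 and 6.82 in XX germ cells at 13.5 dpc. The groups then did not overlap, and the difference was 0.41 (SE 0.07, adjusted p = 0.000187). At 12.5 dpc the aligned levels were 7.24, 7.37 and 7.33 in XY and 7.08 and 7.06 in XX germ cells, a difference of 0.24 (SE 0.08) that did not pass (adjusted p = 0.163). At 11.5 dpc it was 0.14 (SE 0.07, adjusted p = 1). The growth of the aligned difference from 11.5 to 13.5 dpc was 0.26 (SE 0.10) and did not pass (adjusted p = 0.146).

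**Figure D3:**
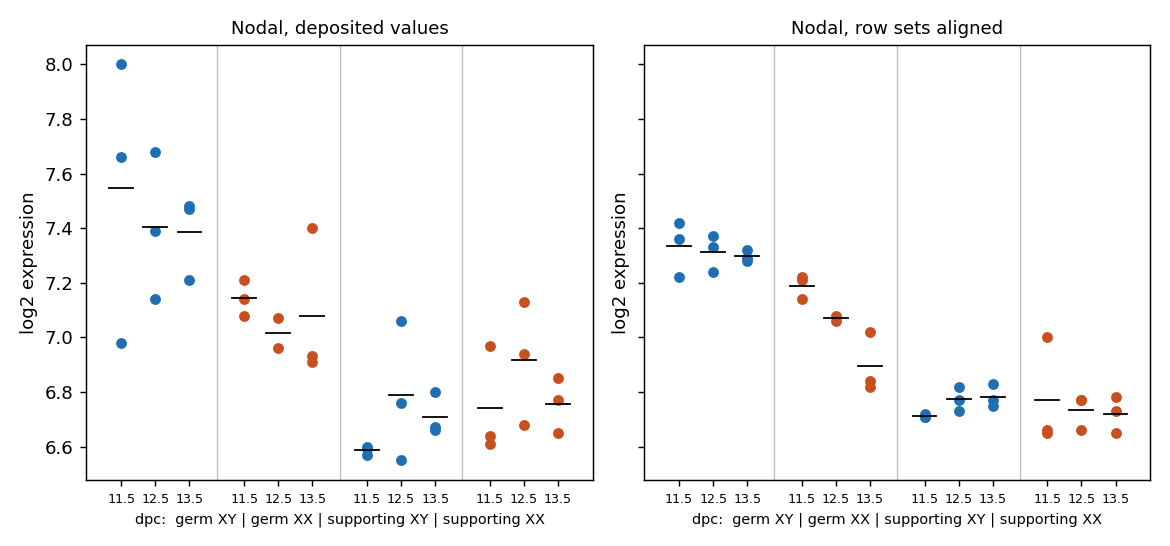
Nodal log2 expression in each of the 35 arrays kept, by stage (dpc), for XY germ, XX germ, XY supporting and XX supporting cells, as deposited on the left and with row sets aligned on the right; bars are group means. Arrays of a group lie closer together on the right (pooled SD 0.08 against 0.23), and at 13.5 dpc XY germ cells lie at 7.28 to 7.32, above XX germ cells at 6.82 to 7.02.

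Foxh1, the gene of the DNA-binding partner of SMAD2 and SMAD3, was lower at 13.5 dpc in both sexes and passed in no sex comparison. At 11.5 dpc it stood at 7.41, 7.58 and 7.73 in XY and at 7.29, 7.55 and 7.76 in XX germ cells. At 12.5 dpc it stood at 7.45, 6.92 and 7.48 in XY and at 8.1 and 7.66 in XX germ cells. At 13.5 dpc it stood at 5.93, 6.95 and 6.48 in XY and at 6.73, 6.53 and 6.18 in XX germ cells. The XX arrays of 13.5 dpc lay below those of 12.5 dpc without overlap, and the XY arrays overlapped by 1 array. Foxh1 fell at 13.5 against 12.5 dpc in XY (-0.83, SE 0.21, adjusted p = 0.0163) and in XX germ cells (-1.4, SE 0.23, adjusted p = 5.19e-05). The XX value was -0.63 with row sets aligned (adjusted p = 0.0044). The XY call was lost without XY 13.5 dpc replicate 1 (-0.57, adjusted p = 0.308), XY 12.5 dpc replicate 1 (-0.75, adjusted p = 0.107) or XY 12.5 dpc replicate 3 (-0.73, adjusted p = 0.122), and with row sets aligned it was -0.85 (adjusted p = 5.54e-05). With the left-out array kept, in which Foxh1 stood at 5.71, neither fall passed, at -0.83 (adjusted p = 0.336) in XY and -0.68 (adjusted p = 0.148) in XX germ cells.

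XY minus XX for Foxh1 was 0.04 at 11.5 dpc (SE 0.21, adjusted p = 1), -0.6 at 12.5 dpc (SE 0.23, adjusted p = 0.192) and -0.02 at 13.5 dpc (SE 0.21, adjusted p = 0.971; -0.32 and adjusted p = 0.0909 with row sets aligned). The 95% intervals were -0.38 to 0.46, -1.07 to -0.13 and -0.45 to 0.4. The 12.5 dpc value was -0.09 with row sets aligned and 0.12 with the left-out array kept, and neither passed. At 12.5 against 11.5 dpc in XX germ cells Tdgf1 alone of the 6 genes passed, and Foxh1 was at 0.35 (SE 0.23, adjusted p = 0.623). The direction of this Foxh1 value turned with row sets aligned (-0.24) and with the left-out array kept (-0.37), and neither passed.

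Acvr1b, the type I receptor gene that NODAL shares with activin, passed in no sex or stage comparison of germ cells. It stood at 6.46, 6.67 and 7.02 in XY and at 6.31, 6.47 and 5.93 in XX germ cells at 13.5 dpc, where the groups overlapped. The difference was 0.48 (SE 0.19, 95% interval 0.1 to 0.86, adjusted p = 0.115). It passed with array weights (0.63, adjusted p = 0.0104) and without XY 13.5 dpc replicate 1 (0.61, adjusted p = 0.0379). At 11.5 and 12.5 dpc it was -0.12 (SE 0.19, adjusted p = 1) and -0.16 (SE 0.21, adjusted p = 0.758). Acvr1b was the single member with a sex difference in supporting cells. It stood at 7.4, 6.93 and 7.19 in XY and at 6.59, 6.8 and 6.49 in XX supporting cells at 13.5 dpc, where it was higher in XY by 0.55 (SE 0.19, adjusted p = 0.0466). That call was lost without XY replicate 1 (0.43, adjusted p = 0.271), XY replicate 3 (0.54, adjusted p = 0.125), XX replicate 1 (0.53, adjusted p = 0.122) or XX replicate 3 (0.48, adjusted p = 0.205), with trended robust moderation (adjusted p = 0.0581) and with the left-out array kept (adjusted p = 0.0644). With row sets aligned it held (0.65, adjusted p = 0.0121).

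Counted together, 0 of the 6 genes passed the XY against XX comparison of germ cells at 11.5 dpc in limma, where 1 had an unadjusted p under 0.05, 0 passed after alignment of the row sets, and the share of all genes that passed was 0.0251%. At 12.5 dpc 3 of 6 were higher in XY, where 0.426% of all genes were and 1.37% were lower, and at 13.5 dpc 3 of 6 were higher, where 5.28% of all genes were. Of all calls at 11.5 dpc 100% were higher in XY as deposited and 35% with row sets aligned. At 12.5 dpc 23.7% were higher in XY as deposited, 40.2% with row sets aligned and 34.2% with arrays centred. The counts of members higher in XY at 12.5 and 13.5 dpc were 3 and 4 with row sets aligned, where 157 and 1791 of all 19938 genes were higher. The median of the 6 differences was 0.67 at 12.5 dpc and 0.91 at 13.5 dpc, where the medians of all genes were 0.02 and 0.07. The sex difference grew for 1 of 6 genes from 11.5 to 12.5 dpc, where it did for 0.0451% of all genes. With row sets aligned it grew for 3 of 6, where it did for 25 of all 19938 genes. Of all calls for that change 31% were higher as deposited and 42.4% with row sets aligned. From 11.5 to 13.5 dpc the sex difference grew for 3 of 6, where it did for 1.58% of all genes. Each change shares its arrays with the sex comparisons it is made from.

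Between stages, 1 of 6 genes was higher at 12.5 than at 11.5 dpc in XY germ cells, where 0.732% of all genes were. At 13.5 against 12.5 dpc in XY germ cells 2 of 6 were lower, where 1.52% of all genes were. In XX germ cells 1 of 6 was lower at 12.5 than at 11.5 dpc, where 0.201% of all genes were, and 3 of 6 were lower at 13.5 than at 12.5 dpc, where 6.77% of all genes were. In the last comparison the median of all genes was -0.15 as deposited and 0 with row sets aligned, and 19.4% of all calls were higher as deposited against 49.8% with row sets aligned. The shares of calls that were higher were 36% as deposited and 53.4% with row sets aligned at 13.5 against 12.5 dpc in XY, 82.5% and 55.1% at 12.5 against 11.5 dpc in XX, and 55.7% and 44.2% at 12.5 against 11.5 dpc in XY germ cells.

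Markers of other cells were read in the same arrays. At 12.5 dpc the median of the 6 stromal markers was 6.4 to 6.46 in XY and 6.76 to 7.45 in XX germ cells. Of these 6 genes 1 passed, the matrix gene Dcn, where 0.426% of all genes were higher and 1.37% lower in XY. Dcn is named after its values were seen and was lower in XY (-1.24, adjusted p = 0.0184). Its difference was -0.71 (adjusted p = 0.0889) with row sets aligned and -1.16 (adjusted p = 0.118) without XY replicate 2. Without XX replicate 2, which leaves a single XX array, it was -0.85. The germ cell marker median was at least 10.52 in XY and at least 10.64 in XX germ cells at that stage. At 13.5 dpc it was 10.62 to 11.08 in XY and 10.8 to 11.25 in XX germ cells, and the stromal median was 6.15 to 6.88 in XY and 6.02 to 6.98 in XX germ cells. Of the listed supporting (8), endothelial (5), macrophage (4), erythroid (2) and steroidogenic (4) markers 0 passed between the sexes of germ cells at 12.5 or 13.5 dpc, as deposited or with row sets aligned. Of all 19938 genes 358 and 1837 passed at these stages as deposited, and 391 and 3450 with row sets aligned. The part of the stromal signal in the 12.5 dpc differences was not tested. In the left-out array Tdgf1 was at 5.7, Nodal at 6.35, Lefty1 at 5.99, Lefty2 at 5.1 and Acvr1b at 6.18.

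Against supporting cells of the same sex and stage, 5 of the 6 genes were higher in XY germ cells at each stage. The exception was Acvr1b, at 0.34, -0.29 and -0.46 over the 3 stages in turn, and at 0.22, -0.47 and -0.6 with row sets aligned. Its last value did not pass (adjusted p = 0.0715), but it did with row sets aligned (adjusted p = 0.0147), arrays centred (-0.49, adjusted p = 0.0249), quantile normalisation (-0.47, adjusted p = 0.0316) and array weights (-0.35, adjusted p = 0.0484), and without germ XY replicate 3 (-0.61, adjusted p = 0.0275) or supporting XY replicate 2 (-0.58, adjusted p = 0.0441). The shares of all genes higher in XY germ cells were 20.3%, 14.7% and 14.3%. In XX germ cells 3 genes were higher at 11.5 dpc, where 17.4% of all genes were, 3 at 12.5 dpc, where 14.7% were, and 1 at 13.5 dpc, where 14.8% were. The XX counts were 5, 4 and 1 with row sets aligned, where 4474, 3564 and 4017 of all 19938 genes were higher. The median of all genes was 0.15 in the XY comparison at 11.5 dpc and 0.14 at 13.5 dpc, and nearer to 0 in the others. At 11.5 dpc 72% of all calls were higher in XY germ cells as deposited and 55.5% with row sets aligned, and 65.6% were higher in XX germ cells as deposited and 51.5% after quantile normalisation.

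Tdgf1 exceeded supporting cells by 5.28 (38.7-fold), 5.01 and 3.9 in XY germ cells over the 3 stages in turn, each with an SE of 0.25. XX germ cells did so by 4.22 (SE 0.25) and 1.76 (SE 0.28) at 11.5 and 12.5 dpc, and at 13.5 dpc the difference of 0.49 (95% interval -0.02 to 1) did not pass (adjusted p = 0.174; 0.24 with row sets aligned). With the left-out array kept, the XX 12.5 dpc value was 1.04 for Tdgf1 and 1.22 for Foxh1, and both passed. Foxh1 was higher in germ cells in all 6 comparisons, by 1.73, 1.46 and 0.56 in XY and by 1.59, 1.94 and 0.68 in XX germ cells over the 3 stages in turn. Its 13.5 dpc call was lost with the left-out array kept (adjusted p = 0.24 in XY and 0.133 in XX). In XY it was also lost with quantile normalisation (0.45, adjusted p = 0.058) and without any of 5 of the 6 arrays compared (0.32 to 0.59), among them germ XY replicate 2 (0.32, adjusted p = 0.417). With row sets aligned the XY value was 0.35 (adjusted p = 0.0306). In XX it was lost without germ replicate 1 (0.56, adjusted p = 0.0709) or supporting replicate 1 (0.62, adjusted p = 0.0515).

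Lefty1 was higher in XY germ than in XY supporting cells by 0.83, 1.32 and 1.45 over the 3 stages in turn. The 11.5 dpc call was lost without germ XY replicate 3 (0.54, adjusted p = 0.114), and with row sets aligned the value was 0.53 (adjusted p = 0.00183). Its differences in XX germ cells of 0.58, 0.03 and -0.2 did not pass, and the first had an adjusted p of 0.0571, against 0.00685 with row sets aligned (0.45). It also passed with arrays centred (adjusted p = 0.033), quantile normalisation (0.0407), dim genes left out (0.0495), trended robust moderation (0.0363), array weights (0.0136), in a fit of only the arrays compared (0.0381) and without germ XX replicate 2 (0.78, adjusted p = 0.0173). Lefty2 was higher by 0.96, 1.49 and 1.03 in XY germ cells, and in XX germ cells by 1.16 and 1.03 at 11.5 and 12.5 dpc, the second of which was 0.53 with row sets aligned (adjusted p = 0.0462). At 13.5 dpc in XX it was 0.09 (SE 0.23, adjusted p = 0.847). In XX germ cells at 13.5 dpc no array of either inhibitor gene was above the highest supporting cell array, at 5.91 for Lefty1 and 5.47 for Lefty2.

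Nodal was higher in XY germ than in XY supporting cells by 0.96 at 11.5 dpc (SE 0.20, adjusted p = 0.000124), 0.61 at 12.5 dpc (SE 0.20, adjusted p = 0.0163) and 0.68 at 13.5 dpc (SE 0.20, adjusted p = 0.00775). With row sets aligned the first was 0.62 (adjusted p = 8.47e-08). The 12.5 dpc call was lost without germ XY replicate 2 (0.47, adjusted p = 0.119) or supporting XY replicate 1 (0.49, adjusted p = 0.0996). The XX differences of 0.4, 0.1 and 0.32 did not pass. With row sets aligned the first and second XX values were 0.42 (adjusted p = 3.19e-05) and 0.34 (adjusted p = 0.00184), and the 13.5 dpc value was 0.17 (adjusted p = 0.0741). With array weights the 11.5 and 13.5 dpc values were 0.41 (adjusted p = 0.0239) and 0.4 (adjusted p = 0.0343). In supporting cells themselves, XY minus XX passed for 0 of 6 genes at 11.5 and 12.5 dpc in limma, where 3.33% and 13.4% of all genes passed. The member counts were 0 and 1 at an unadjusted p under 0.05, where those of all 19938 genes were 1928 and 4378. With row sets aligned 0 and 0 of the 6 passed, where 1719 and 5533 of all 19938 genes did. Of all calls 48.7% and 63.5% were higher in XY as deposited, 64.6% and 67.5% with row sets aligned, and 57.1% and 50.7% after quantile normalisation. It passed for Acvr1b alone at 13.5 dpc, where 7.21% of all genes were higher in XY. Lefty2 there was 0.41 (adjusted p = 0.332) and passed with array weights (adjusted p = 0.0228) and in a fit of only the arrays compared (adjusted p = 0.0356).

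**Figure D4:**
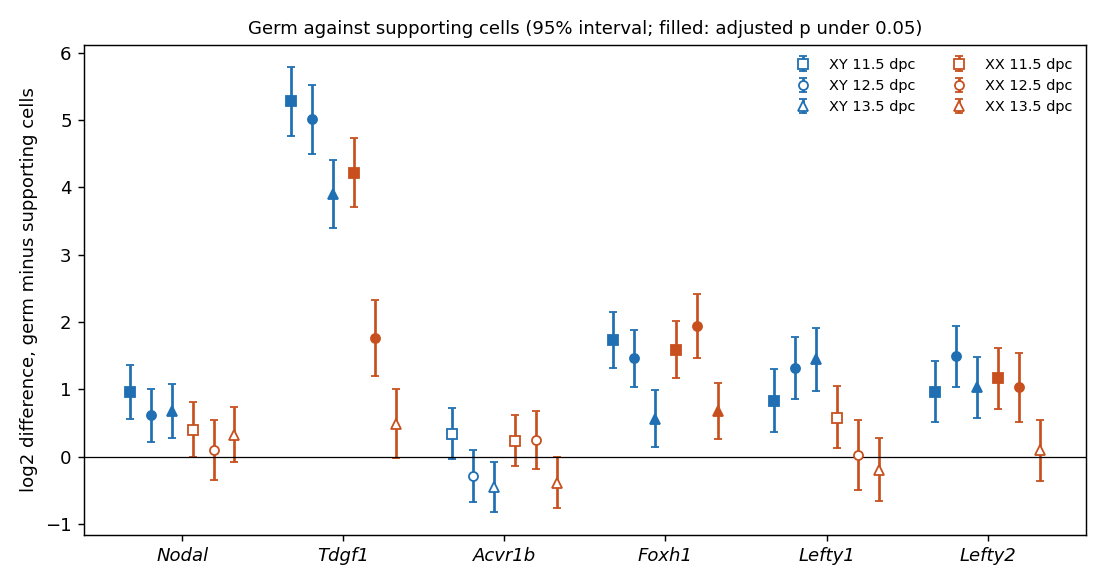
Points give the log2 difference of germ minus supporting cells for each gene in XY (blue) and XX (red) at 11.5 (squares), 12.5 (circles) and 13.5 dpc (triangles), with the 95% interval; filled points passed at an adjusted p under 0.05. Tdgf1 stands at 5.28 in XY at 11.5 dpc and at 0.49, not past the test, in XX at 13.5 dpc.

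The rest of the pathway was described with 28 measured genes, other ligands and convertases, receptors, SMADs with their nuclear partners, inhibitors and targets of the early embryo. Of these 28, 0 passed between XY and XX germ cells at 11.5 and at 12.5 dpc in limma (2 and 5 at an unadjusted p under 0.05, 0 and 1 with row sets aligned). Of all 19938 genes 5 and 358 passed at these stages, and 20 and 391 with row sets aligned. At an unadjusted p under 0.05 the counts of all genes were 586 and 2918. At 13.5 dpc 2 of 28 were higher in XY and 0 lower, where 5.28% and 3.93% of all genes were. With row sets aligned 6 of 28 were higher and 1 lower, where 1791 and 1659 of all 19938 genes were. The list median was 0.2 at 13.5 dpc, where that of all genes was 0.07. The 2 genes were Tgif1, which encodes a corepressor of SMAD-driven transcription, and Eomes, a T-box factor that NODAL induces in the gastrula.

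Tgif1 stood at 9.96 ± 0.31 in XY and 8.29 ± 0.38 in XX germ cells at 13.5 dpc (SD, n = 3 each), higher in XY by 1.67 (SE 0.26, adjusted p = 7.1e-06). Supporting cells of both sexes had higher means than any germ cell group, at 10.18 to 11.05. At 12.5 dpc it was at 8.99 to 9.68 in XY and 8.29 to 8.5 in XX germ cells, with 0.87 (SE 0.29, adjusted p = 0.119) that passed with row sets aligned (1.01, adjusted p = 0.00496). Eomes stood at 6.16 ± 0.37 in XY and 5.41 ± 0.39 in XX germ cells at 13.5 dpc (SD, n = 3 each), higher in XY by 0.75 (SE 0.20, adjusted p = 0.00679). That call was lost without XX replicate 3 (0.55, adjusted p = 0.139) or XY replicate 2 (0.54, adjusted p = 0.128). With row sets aligned Smad4, the SMAD that the phosphorylated SMADs bind, was also higher in XY (0.57, adjusted p = 0.000245), as were Pmepa1 (0.55, adjusted p = 0.00795), a feedback inhibitor, and the secreted antagonists Cer1 (0.38, adjusted p = 0.00174) and Dand5 (0.29, adjusted p = 0.0337). The convertase gene Furin was then lower (-0.46, adjusted p = 0.0149). As deposited these 5 did not pass, and they are named for the aligned values alone. Cer1 and Eomes were dim, with deposited group means of 5.18 to 5.72 and of 5.22 to 6.16, where the lowest array median was 6.54. The highest mean of Cer1 was in XY supporting cells at 12.5 dpc, against 5.66 in XY germ cells at 13.5 dpc. Of the receptors and co-receptors, Acvr2a, Acvr2b, Acvr1c and Cfc1, 0 of 4 passed between the sexes at any stage as deposited or with row sets aligned, and the receptor list medians were -0.05, -0.06 and 0.22 over the 3 stages in turn. Of all 19938 genes 5, 358 and 1837 passed over these stages as deposited, and 20, 391 and 3450 with row sets aligned.

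Over time 4 of the 28 were lower at 13.5 than at 12.5 dpc in XX germ cells, where 6.77% of all genes were. These were Gdf3 (-1.05), Furin (-0.72), Acvr2b (-0.82) and Trim33 (-0.94), named after their values were seen. With row sets aligned 0 of these 4 passed (-0.55, -0.14, -0.14 and -0.25 in the same order), and 2 other genes were lower, Smad4 (-0.39, adjusted p = 0.0427) and Mixl1 (-0.4, adjusted p = 0.0423). Of all 19938 genes 726 were lower in that comparison with row sets aligned. Of the 28, 0 were lower without XX 13.5 dpc replicate 3 and 1 without XX 12.5 dpc replicate 2, where Furin was at -0.33 (adjusted p = 0.576). In the other stage comparisons of germ cells 0 of the 28 passed in limma (1 to 7 at an unadjusted p under 0.05, 0 to 3 with row sets aligned). Of all 19938 genes 262 passed at 12.5 against 11.5 dpc in XY germ cells (588 with row sets aligned). At 13.5 against 12.5 dpc in XY 475 did (1074 with row sets aligned), and at 12.5 against 11.5 dpc in XX 229 (428 with row sets aligned). At an unadjusted p under 0.05 the counts of all genes were 1908, 2279 and 2303 in the same order.

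**Figure D5:**
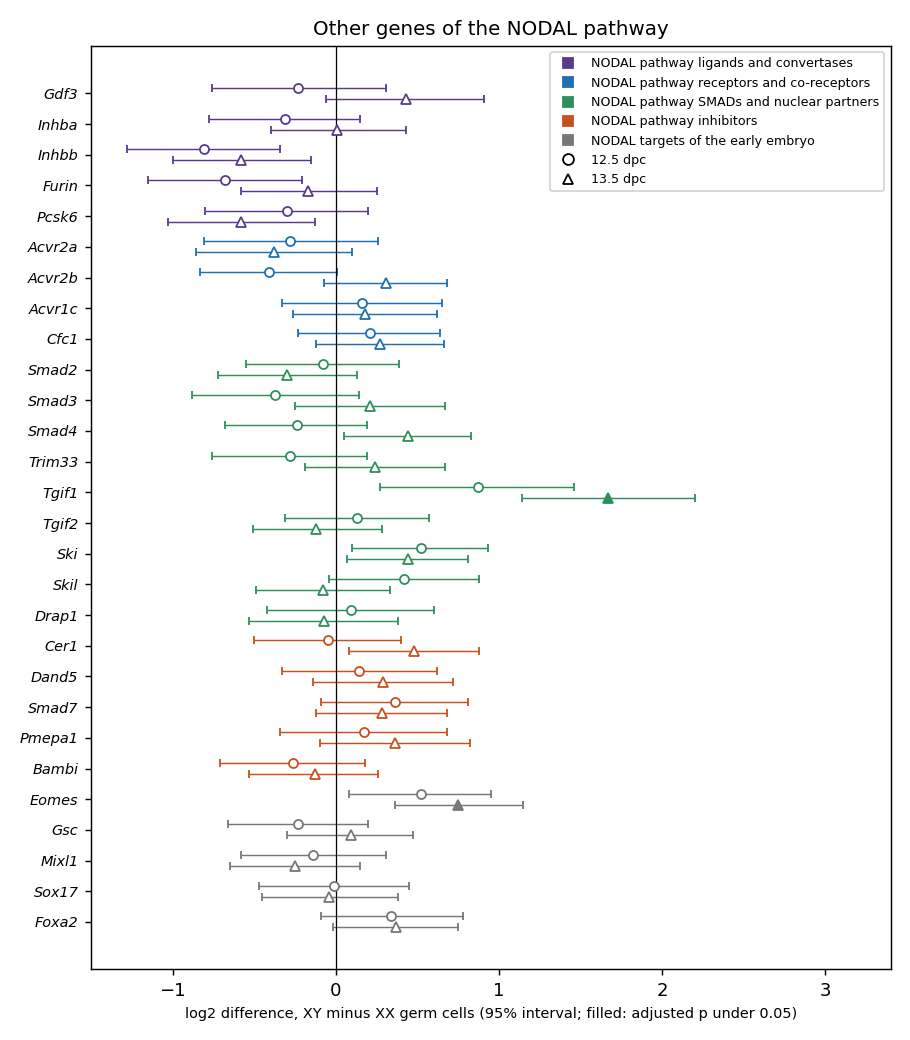
Points give the log2 difference of XY minus XX germ cells for the 28 other pathway genes at 12.5 (circles) and 13.5 dpc (triangles), with the 95% interval, coloured by role, with 12.5 dpc above 13.5 dpc; filled points passed at an adjusted p under 0.05. Tgif1 (1.67) and Eomes (0.75) at 13.5 dpc are filled.

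Genes of the germ cell programs were read on the same arrays. At 12.5 dpc 0 of 6 genes of the male germ cell program passed, where 0.426% of all genes were higher in XY and 1.37% lower. At that stage 3 of 6 meiotic entry genes were lower in XY, where 1.37% of all genes were. These were Stra8 (-1.76), which retinoic acid induces before meiosis, Meioc (-1.24), needed for meiotic prophase, and the meiotic cohesin gene Rec8 (-1.12). Stra8 stood at 5.59 to 5.84 in XY and at 8.05 and 6.87 in XX germ cells, and its call held without any 1 of the 5 arrays (-2.35 to -1.17). Meioc stood at 5.25 to 5.8 in XY and at 8.05 and 5.56 in XX germ cells, so a single XX array was above the XY range. Its difference was 0 without XX replicate 1 (adjusted p = 0.996), and its call was also lost without XY replicate 1 (-1.28, adjusted p = 0.0613) or XY replicate 2 (-1.09, adjusted p = 0.199). Rec8 stood at 6.1 to 6.46 in XY and at 6.9 and 7.86 in XX germ cells, with a difference of -0.64 without XX replicate 2 (adjusted p = 0.522) and of -1.03 without XY replicate 2 (adjusted p = 0.0742). Leaving out 1 array at a time, 1 to 3 of the 6 meiotic entry genes were lower. At 13.5 dpc 4 of 6 genes of the male germ cell list were higher in XY, where 5.28% of all genes were, led by the RNA-binding genes Nanos2 (3.89) and Nanos3 (1.84) and by Piwil4 (1.57), which acts in transposon silencing. Nanos3 was not particular to XY germ cells, with means of 9.43 in XY and 9.5 in XX at 11.5 dpc. At 13.5 dpc these were 9.47 and 7.63, so the XY mean stood near that of 11.5 dpc and the XX mean was lower. The male regulator Nanos2 stood at 5.89 to 7.11 in XY and 5.7 to 5.87 in XX germ cells at 12.5 dpc, so the groups did not overlap but the difference was not past the test. All 6 meiotic entry genes were lower in XY at 13.5 dpc, where 3.93% of all genes were, led by Stra8 (-4.64), Meioc (-4.55) and Dmc1 (-2.57), a recombinase gene. Of 8 pluripotency genes 0 passed at 12.5 dpc, where 0.426% of all genes were higher and 1.37% lower, and 4 were higher in XY at 13.5 dpc, where 5.28% of all genes were (2 to 4 leaving out 1 array at a time), led by Utf1 (1.56), Zfp42 (1.47) and Pou5f1 (0.91), the gene whose reporter was used for sorting. The Pou5f1 call was lost without XX replicate 2 (0.8, adjusted p = 0.0804), XX replicate 3 (0.68, adjusted p = 0.164), XY replicate 2 (0.81, adjusted p = 0.0763) or XY replicate 3 (0.84, adjusted p = 0.064).

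Across the 12 group means, which share the contrast of germ with supporting cells, Lefty1 and Lefty2 correlated at r = 0.89 and Tdgf1 with Nodal at 0.91, as a description of 12 points. Over the 6 germ cell groups alone these were 0.86 and 0.78. Foxh1 correlated with Tdgf1 at 0.81 over 12 groups and at 0.37 over the 6 germ cell groups. Acvr1b correlated with Tdgf1 at 0 over 12 groups and at 0.45 over the 6 germ cell groups. Among genes whose means spanned at least 1 log2 unit, the 5 profiles closest to Tdgf1 by Pearson correlation over the 12 groups were Exosc3 (0.978), Ddt (0.969), Slc7a3 (0.967), Klhdc4 (0.966) and Hspa14 (0.964). For Lefty2 they were Lsg1 (0.975), Lhx1 (0.967), Ddx56 (0.961), Zfp750 (0.96) and Smyd5 (0.956), and for Lefty1 Irgm1 (0.967), Snx11 (0.966), Lrrfip1 (0.955), Pdlim3 (0.952) and Sirt4 (0.934). For Nodal they were Crnkl1 (0.981), Sik3 (0.97), Rpp40 (0.969), Tbp (0.968) and Ormdl2 (0.968). For Foxh1 they were B4galt6 (0.983), Smn1 (0.981), 1700019D03Rik (0.98), Nfyb (0.98) and Mir363 (0.979), and for Acvr1b, less closely, Mettl21c (0.889), Med27 (0.878), Tnni3 (0.874), Ctse (0.872) and Pla2g1b (0.866). None of the 6 genes was among the 5 closest to another, but Nodal, whose means spanned 0.96, was below the span limit and could not be listed.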

How the data were processed

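The authors deposited RMA values on the log2 scale, 1 per probe set and array, and the submitters' processing notes name RMA without a version. The table held 35557 probe sets on 36 arrays. GEO's platform annotation gave 1 symbol to 21789 probe sets, several to 1621 and none to 12147. The probe set with the highest mean stood for each of 19938 genes. In 35 arrays the values fell into 3 row sets and in 1 into 2, each on its own linear scale (slopes 1.0099 to 1.059, median gap 0.3), with 3 values in no set; no label or file header says what made them. Row sets aligned means that each set was divided by its slope and moved to a single median, which also centres the arrays.

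The 35 arrays kept entered a single limma 3.58.1 model (R 4.3.3) of 12 group means (23 residual degrees of freedom), and 18 contrasts were tested with Benjamini-Hochberg adjustment over all genes. Tables and plots used Python 3.11.15, numpy 2.4.6, pandas 2.3.3 and matplotlib 3.10.9. The fit was tested on simulated data. The labels do not say that arrays of a group came from separate pools of embryos, so p-values measure the spread between these arrays, which may be technical, and their number limits the precision. No 2 arrays held identical values. No batch is named in the labels. The alternatives were row sets aligned, arrays centred, quantile normalisation, array weights, trended robust moderation, dim genes left out (highest group mean under 6), the mean of probe sets, only the arrays compared, a replicate block, each array left out in turn, and the left-out array kept. For list genes, leaving out arrays was added after seeing the data. The labels name no pairing by replicate number. Same-numbered deviations of the deposited values correlated at -0.28 to 0.13 between XY and XX germ cells and at -0.52 to 0.09 between XY and XX supporting cells. Between germ and supporting cells they correlated at -0.18 to 0.19 in XY and at -0.04 to 0.19 in XX. In 0 of 3 stages was every pair over 0.1. This was not repeated with row sets aligned, so whether the numbers pair arrays is not known. The 6 genes and the lists were chosen with earlier results of these data known. From the lists, the pathway genes that passed between the sexes and up to 3 genes per other list were named, in order of size, and for each member the 5 most alike profiles.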

Additional observations from a re-analysis of the deposited data

Results flagged for a closer look

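The sex difference in germ cells changed with stage for 3 genes, by a test of the change itself. For Tdgf1 the change of XY minus XX was 1.98 from 11.5 to 12.5 dpc (adjusted p = 0.00549 in limma) and 2.47 from 11.5 to 13.5 dpc (adjusted p = 6.55e-06). From 11.5 to 13.5 dpc it was 1.35 for Lefty1 (adjusted p = 0.00952) and 1.42 for Lefty2 (adjusted p = 0.00467). The 2 changes of Tdgf1 share the 11.5 dpc arrays.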

How the results depend on the processing

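Of 1770 recomputed values for 108 results of the 6 genes, 1697 kept their side of the threshold, 44 lost their call and 29 gained one. The sign turned in 76 values of 28 results, none past the threshold before or after, 12 of them with row sets aligned and 8 with the left-out array kept. Among the other genes, chosen for this after seeing the data, Meioc XY minus XX at 12.5 dpc was -2.49 to 0 leaving out arrays in turn, with 0 without XX replicate 1. The replicate block changed no call of the 6 genes. With it Tdgf1 XY minus XX was 2.9 at 12.5 and 3.36 at 13.5 dpc, and 339 and 1809 genes were called. Calls were gained with row sets aligned for Nodal XY minus XX at 13.5 dpc (0.41) and for the change of the sex difference to 12.5 dpc of Lefty1 (0.88) and Lefty2 (1.33). With array weights Acvr1b at 13.5 dpc gained a call (0.63), and Lefty2 at 12.5 dpc (1.17) and the Tdgf1 change to 12.5 dpc (1.77) lost theirs. Leaving out arrays in turn gave 1.01 to 1.54 for Lefty1 and 0.59 to 1.18 for Lefty2 at 12.5 dpc, 0.32 to 0.61 for Acvr1b at 13.5 dpc, and 1.54 to 2.43 for the Tdgf1 change to 12.5 dpc; a group left with 1 array is assumed to vary like the others. Genes called between XY and XX germ cells numbered 5 at 11.5 dpc (20 with row sets aligned, 15 from only the arrays compared, 5 to 9 leaving out arrays). At 12.5 dpc they numbered 358 (775 with the left-out array, 768 centred, 754 quantile normalised, 91 with array weights, 92 to 316 leaving out arrays, 92 without XX replicate 2 and 144 without XY replicate 2). At 13.5 dpc they numbered 1837 (3450 with row sets aligned, 6230 with array weights, 1194 to 2758 leaving out arrays, 1194 without XX replicate 3 and 2758 without XY replicate 1). The causes were not tested.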
